A study of Mus musculus with 12 samples.

Results

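Distal accessible regions that are open mainly in long-term haematopoietic stem cells (LT-HSC) were taken from 1 table of ATAC-seq counts. ATAC-seq uses the Tn5 transposase to cut and tag DNA that is not packed away, so that the number of reads over a region measures how open it is. A region counted as a member when it lay on an autosome, over 1 kb from both ends of every protein-coding RefSeq gene but within 100 kb of a gene body, held a mean of at least 5 CPM in wild-type (WT) LT-HSC, and held at least 4 times its mean in WT multipotent progenitors (MPP). CPM is the usual depth-scaled unit, here a region's count over the total count of its library. This gave 1426 of 188262 regions in the table and of 144561 autosomal distal regions within that reach of a gene. The values that chose the members are those of the 3 WT LT-HSC and 3 WT MPP libraries, so the difference between WT populations is described here and not tested.

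The table held 12 libraries of male mice in 4 groups of 3. WT mice were Phf6f/Y Rosa26+/+, with a floxed X-linked Phf6 allele and no Cre, and knockout (KO) mice were Phf6-/Y Rosa26+/Cre-ERT2, which carry the deletion and, at the ubiquitously expressed Rosa26 locus, a Cre that tamoxifen activates. Per the labels, 20000 LT-HSC were sorted 8 weeks after tamoxifen from separate mice of each genotype. The labels leave out how MPP were prepared, whether any were pooled, and whether LT-HSC and MPP of 1 number shared an animal. P-values therefore measure the spread between these samples, and the effect of Cre cannot be told apart from that of Phf6 loss. ATAC-seq of a sorted population also cannot tell apart a region that is less open in every cell from one that is open in fewer cells.

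LT-HSC sit at the top of blood formation, divide rarely and can rebuild all blood lineages for life, while MPP divide more, keep all lineages but lose long-term self-renewal. Distal accessible regions include enhancers, stretches of DNA where transcription factors bind and from which they act on promoters, often over long distances and within introns. Enhancers are more specific to a cell type than promoters, which tend to be open in most cells of a tissue. PHF6 is a nuclear protein with zinc fingers related to PHD domains that binds chromatin and is mutated in T-cell and myeloid leukaemias. A region below carries the name of the gene whose body it overlaps or lies nearest to, which does not show that it acts on that gene.

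Few members held an annotated transcription start. RefSeq start windows (GRCm38.p6, 32851 windows) placed a start inside 33 members (2.31%), of which 24 held a protein-coding start and 11 a long non-coding RNA start. The share was 8.82% among 10305 distal regions that were about equally open in both WT populations and 6.15% among all 29155 distal regions with 5 CPM or more in WT LT-HSC. It was 1.74% among 1664 distal regions chosen by the mirrored rule as open mainly in MPP, and 1.99% among all autosomal distal regions, close to the members. A protein-coding start lay in 1.68% of members, 1.1% of all autosomal distal regions and 0.3% of regions open mainly in MPP. The about equally open regions had 6.33% and the distal regions with 5 CPM 4.14%. Of the 37 windows with a start inside a member, each from 250 bases before to 50 after the start, 4 are printed as the 250 bases before the start because they belong to the 2 strongest such members or to listed stem cell genes. These lines run 5′ to 3′ on the strand of the transcript, from RefSeq in build GRCm38.p6. Capitals mark the GATA-factor core AGATAA or its reverse TTATCT, and the MEIS and TGIF core TGACAG or its reverse CTGTCA.

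Gm39087, a non-coding RNA beside Nupr1, chr7:126621519-126621768 (plus strand): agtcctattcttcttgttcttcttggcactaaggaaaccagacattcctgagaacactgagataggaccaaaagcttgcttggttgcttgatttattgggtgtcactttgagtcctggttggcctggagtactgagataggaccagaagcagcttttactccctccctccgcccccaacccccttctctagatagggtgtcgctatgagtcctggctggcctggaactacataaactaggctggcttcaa

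Spag9, an internal start, chr11:94043880-94044129 (plus strand): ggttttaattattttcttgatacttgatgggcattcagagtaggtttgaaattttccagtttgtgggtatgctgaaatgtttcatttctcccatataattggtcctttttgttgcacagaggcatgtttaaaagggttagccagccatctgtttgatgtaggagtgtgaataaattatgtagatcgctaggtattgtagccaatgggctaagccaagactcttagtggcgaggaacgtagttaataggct

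Aldh1a1, an internal start, chr19:20601718-20601967 (plus strand): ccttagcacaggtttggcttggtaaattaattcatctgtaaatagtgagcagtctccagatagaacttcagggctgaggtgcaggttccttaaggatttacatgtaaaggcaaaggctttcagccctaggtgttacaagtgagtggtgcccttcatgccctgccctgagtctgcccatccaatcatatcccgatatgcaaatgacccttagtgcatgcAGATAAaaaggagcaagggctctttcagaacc

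Mllt3, an internal start, chr4:87806324-87806573 (minus strand): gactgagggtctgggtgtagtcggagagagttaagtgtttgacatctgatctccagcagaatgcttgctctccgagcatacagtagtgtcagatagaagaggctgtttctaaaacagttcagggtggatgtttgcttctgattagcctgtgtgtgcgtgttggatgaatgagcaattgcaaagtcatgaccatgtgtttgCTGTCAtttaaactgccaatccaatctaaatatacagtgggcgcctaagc

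The GATA core AGATAA, searched on both strands, was found in 7 of the 37 windows (18.9%). All 32851 windows held it in 9.99%, windows in the about equally open distal regions in 4.71%, and those in regions open mainly in MPP in 12.9% (4 of 31). The ETS core AGGAAG was found in 21.6% of the members' windows, 29.5% of all windows and 58.1% of the windows in regions open mainly in MPP. The E-box CAGCTG was found in 21.6% against 13.0% of all windows, and the AP-1 site TGANTCA in 8.11% against 6.75%. The RUNX site TGTGGTT was found in 2.70% against 4.40%, and the MEIS and TGIF core in 13.5% against 15.9%. The CEBP site TTGCNNAA stood at 8.11% against 9.56%, the KLF site CCCCACCC at 10.8% against 9.05%, the STAT site TTCNNGGAA at 2.70% against 4.06% and the IRF site at 5.41% against 2.98%. The longer ETS site ACCGGAAG, the PAR bZIP site TTACGTAA, the SMAD site GTCTAGAC and the CTCF and NFI sites were found in none of the 37, and in 1.72%, 0.113%, 0.167%, 0.0122% and 0.0365% of all windows. One window is 2.70% of the 37, and a match describes letters and not a bound site. Stretches of 40 bases around the GATA core are given for the other 6 windows that hold it, with the core in capitals.

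St7, chr6:17743507-17743546 (plus strand): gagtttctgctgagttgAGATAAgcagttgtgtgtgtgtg

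Schip1, beside Iqschfp, chr3:68467933-68467972 (plus strand): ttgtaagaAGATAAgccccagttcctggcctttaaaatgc

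Gm32745, beside Tspan18, chr2:93353927-93353966 (minus strand): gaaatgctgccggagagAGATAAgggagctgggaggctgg

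Gm35922, beside Slc1a1, chr19:28770627-28770666 (plus strand): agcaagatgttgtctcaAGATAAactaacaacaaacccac

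A330048O09Rik, beside Id4, chr13:48273891-48273930 (minus strand): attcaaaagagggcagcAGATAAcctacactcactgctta

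Pde1b, chr15:103506876-103506915 (plus strand): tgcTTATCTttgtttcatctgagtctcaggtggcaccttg

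Of these members the one at Gm39087 was among the most open of all, with means of 44.9 CPM in WT LT-HSC, 44.6 CPM in KO LT-HSC, 3.84 CPM in WT MPP and 5.01 CPM in KO MPP. At Spag9, which encodes a scaffold for JNK kinases, the means in the same order were 25.8, 28.2, 4.87 and 7.4 CPM. The Aldh1a1 start, at a gene for a retinaldehyde dehydrogenase, lay in a member with 12.7, 13.0, 1.79 and 2.33 CPM, and the Mllt3 start in one with 5.96, 6.38, 1.41 and 1.75 CPM. In each genotype these regions were several-fold more open in LT-HSC than in MPP. A miRNA hairpin lay inside 2 members, Mir7232 at Gcfc2 and Mir8103 at Osbpl7.

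Together the members took a similar small share of the counts in every LT-HSC library. The share was 1.46%, 1.46% and 1.43% in the WT LT-HSC libraries and 1.45%, 1.43% and 1.46% in those of KO LT-HSC. In the WT MPP libraries it was 0.237%, 0.247% and 0.244%, and in those of KO MPP 0.277%, 0.287% and 0.270%. The 2 LT-HSC genotypes overlapped, and every KO MPP library lay above every WT MPP library while staying far below LT-HSC. Regions open mainly in MPP took 1.59% to 1.74% in WT MPP and 1.49% to 1.55% in KO MPP. The rule picked members for low values in these WT MPP libraries and the mirrored regions for high ones. It thus favours KO MPP above WT MPP in the first set and below it in the second. The smallest 2-sided p that an exact permutation test of 3 against 3 libraries can give is 0.1, and these shares are given without a test.

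**Figure D1:**
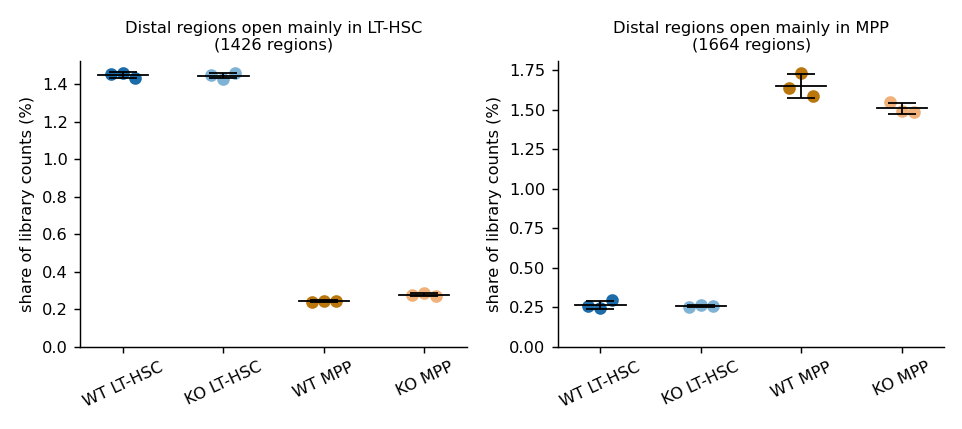
Share of each library's counts (%) in the 1426 distal regions open mainly in LT-HSC (left) and in the 1664 open mainly in MPP (right), with 1 point per library, and bars for the mean and SD of 3 libraries. On the left the KO MPP points (0.270% to 0.287%) lie above the WT MPP points (0.237% to 0.247%), and the LT-HSC groups overlap. The WT libraries chose both sets, which favours this order in MPP.

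Library totals lay between 22665988 and 48547234 counts. Gene-end regions, those no more than 1 kb from a start or end of a protein-coding gene, held 37.8% to 38.9% of counts in WT LT-HSC, 39.2% to 39.6% in KO LT-HSC, 39.2% to 41.0% in WT MPP and 41.0% to 41.4% in KO MPP. Marker genes were read at their strongest gene-end region in the KO libraries. Flt3, Cd48 and Cd34, surface proteins that rise from LT-HSC to MPP, were higher in KO MPP by log2 fold changes of 0.56 ± 0.06, 0.94 ± 0.12 and 0.53 ± 0.08 (SE). Gene ends of the stem cell genes Procr (-0.09 ± 0.10, adjusted p = 0.464) and Hlf (0.06 ± 0.08, adjusted p = 0.469) did not pass the test, while Slamf1 (-0.35 ± 0.13, adjusted p = 0.0212) and Mecom (-0.25 ± 0.06, adjusted p = 0.000631) were lower in KO MPP. The gene-end region of Phf6, on the X chromosome, held 27.3 ± 1.12 CPM in WT LT-HSC, 27.1 ± 1.07 in KO LT-HSC, 31.5 ± 0.779 in WT MPP and 28.1 ± 0.779 in KO MPP (SD, n = 3), and such counts do not check the deletion.

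In WT, where the rule applied, the members held from 5.003 to 53.6 CPM in LT-HSC (median 7.84) and from 0.083 to 13.3 CPM in MPP (median 1.33). The fold ran from 4.01 to 75.9 with a median of 5.72, and 376 members had a fold of at least 8. Just inside the fold threshold stood regions at Antxr1, Tsc22d2 and Cobl (4.007, 4.008 and 4.009-fold), and just outside it regions at Tuba3b, Slc48a1 and Dkk2 (3.997, 3.997 and 3.996-fold). Just inside the level threshold stood Scarb1, Aff3 and Stat4 (5.003, 5.003 and 5.013 CPM), and just outside it Mtpn, Myom1 and Akap11 (4.9995, 4.9992 and 4.997 CPM). These regions are alike, and the edges of the set are a choice. When members were chosen on 2 of the 3 WT replicate numbers, the library pair left out gave a median fold of 5.97, 5.76 and 5.53 and at least 4-fold in 88.7%, 87.7% and 79.4% of 1393, 1398 and 1515 regions.

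The KO libraries took no part in the choice, so KO MPP against KO LT-HSC tests the same difference in other samples. Every one of the 1426 members was less open in KO MPP, by edgeR's quasi-likelihood test with an adjusted p under 0.05. Of all 186373 regions tested, 34.4% were called lower and 33.3% higher in this comparison. The median log2 fold change of the members was -2.38 (from -5.86 to -1.09) against 0.00 for all regions, and every KO LT-HSC library lay above every KO MPP library in all 1426, as in 36.2% of all regions tested. The fold between KO populations was at least 4 in 1129 members (79.2%) and between 2 and 4 in the other 297. Of distal regions, 1298 met both thresholds in KO, and 1024 of them were members, which is 78.9% of the KO set and 71.8% of the members.

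**Figure D2:**
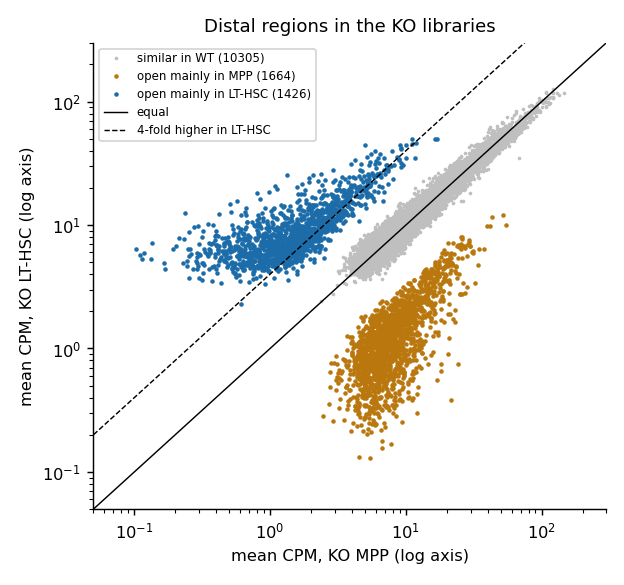
Mean CPM in KO LT-HSC (vertical, log axis) against KO MPP (horizontal, log axis), 1 point per distal region, for regions chosen in WT as open mainly in LT-HSC (blue), open mainly in MPP (orange) or about equally open (grey). All 1426 blue points lie above the line of equality and 1129 lie on or above the dashed 4-fold line.

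The most open members in KO LT-HSC lay at genes of varied function. A region 27.4 kb from Usp3, a histone deubiquitinase gene (chr9:66620590-66621042), held 50.2, 50.1 and 49.3 CPM in KO LT-HSC and 16.7, 16.99 and 15.2 CPM in KO MPP (log2 fold change -1.61 ± 0.07, adjusted p = 8.22e-19). The groups did not overlap, and WT LT-HSC (51.6, 45.9 and 53.8 CPM) spanned the KO LT-HSC values. A region 1.4 kb from Nupr1 (chr7:126621372-126621848), a stress-response gene raised in aged stem cells and the site of the Gm39087 start printed above, held 44.3, 43.5 and 45.9 CPM in KO LT-HSC and 4.96, 5.18 and 4.87 CPM in KO MPP (log2 fold change -3.14 ± 0.08, adjusted p = 2.02e-23). It had the sharpest difference of the 10 most open members. The others named here were at Cdh23 (a cadherin), Plpp7, Btg2 (an antiproliferative gene), Gypc (glycophorin C), Slc2a1 (the GLUT1 glucose transporter), Ahctf1 (a nuclear pore protein) and Soga1, with 41.6 to 49.7 CPM in KO LT-HSC and log2 fold changes from -2.30 to -1.55.

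Genes of stem cell identity held 12 members at 7 genes, among 29 genes listed. This was 6.86% of their 175 distal regions with 5 CPM or more in WT LT-HSC, against 4.89% over all genes. All 12 were lower in KO MPP (median log2 fold change -2.07). The members were 4 at Prdm16, 2 each at Mllt3 and Mecom, and 1 each at Slamf1, Hlf, Meis1 and Vwf. Several well-known stem cell genes, among them Gata2, Erg, Fli1, Tal1 and Runx1, had no member.

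Hlf, a PAR-family bZIP transcription factor that marks stem cells, differed between its body and its end. The member in the gene body (chr11:90381997-90382703) held 14.8 CPM in each of the 3 KO LT-HSC libraries and 2.58, 2.99 and 2.90 in KO MPP (log2 fold change -2.37 ± 0.10, adjusted p = 5.47e-19). Its WT values were 17.7, 16.8 and 17.4 in LT-HSC, against 3.35, 3.46 and 3.81 in MPP, above the KO values in either population without overlap, though neither genotype comparison passed the test (adjusted p = 0.247 and 0.124). The gene end of Hlf held 21.8 ± 0.764 and 22.7 ± 0.904 CPM in KO LT-HSC and KO MPP. The rule asked for a 4-fold difference in WT of the member and not of the gene end.

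Mllt3 encodes AF9, a subunit of the super elongation complex that maintains stem cells. Its stronger member (chr4:87823222-87823957) held 20.3, 20.1 and 21.9 CPM in WT LT-HSC, next to 25.5, 24.3 and 24.1 in KO LT-HSC. In MPP it held 1.83, 2.35 and 2.57 CPM in WT, with 2.69, 3.82 and 3.67 in KO. LT-HSC and MPP stood far apart in KO (log2 fold change -2.83 ± 0.11, adjusted p = 3.20e-20), and KO lay above WT in both populations. The gene end of Mllt3 did not pass the test in KO (-0.01 ± 0.07, adjusted p = 0.941).

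Slamf1 encodes CD150, the surface receptor used to sort LT-HSC. Its member in the gene body (chr1:171773106-171773665) held 15.2, 16.8 and 15.7 CPM in KO LT-HSC, against 1.21, 1.75 and 1.94 in KO MPP (log2 fold change -3.24 ± 0.12, adjusted p = 5.01e-20), where its gene end had -0.35. Vwf, the platelet adhesion protein that also marks platelet-primed stem cells, differed from these genes. Its gene end fell from 9.22 ± 0.582 to 0.520 ± 0.155 CPM from KO LT-HSC to KO MPP, a log2 fold change of -4.17 ± 0.19 (adjusted p = 3.40e-18), and its member (chr6:125583644-125584194) by -1.96 ± 0.15 (adjusted p = 9.93e-13).

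Prdm16 and Mecom encode related zinc finger regulators that stem cells need, and Meis1 a homeodomain factor. The 4 members of Prdm16 had log2 fold changes in KO from -2.21 to -2.05, and its gene end -0.61 ± 0.08 (adjusted p = 2.21e-08). At Mecom the 2 members had -1.67 and -1.57 and the gene end -0.25. The member 92.5 kb from Meis1 had -2.49 ± 0.15 and the gene end of Meis1 -0.34 ± 0.07 (adjusted p = 0.000115). At all these genes but Vwf the members had the larger log2 fold change, a difference that was not tested. The members were chosen for a WT fold of at least 4 and the gene ends were not, which favours this order.

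**Figure D3:**
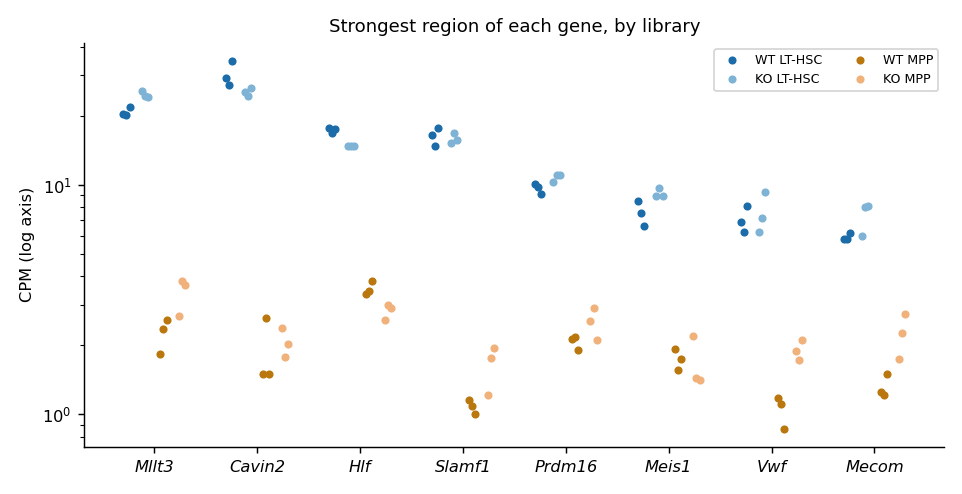
CPM (log axis) in each of the 12 libraries at the member of each named gene with the highest mean in KO LT-HSC, with 1 point per library. All LT-HSC points lie above all MPP points at each gene, and the KO MPP points lie above the WT MPP points at Mllt3, Slamf1, Vwf and Mecom and below them at Hlf, with overlap at Cavin2, Prdm16 and Meis1.

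Genes of the stem cell aging signature held 9 members at 8 of 25 listed genes found, 15.8% of their 57 distal regions with 5 CPM or more in WT LT-HSC. All 9 were lower in KO MPP, with a median log2 fold change of -3.14. Vwf and Slamf1 are also in the identity list. At Cavin2, a caveolar protein gene (chr1:51300138-51300750), the member held 25.4, 24.5 and 26.5 CPM in KO LT-HSC, against 2.39, 1.78 and 2.02 in KO MPP (log2 fold change -3.64 ± 0.14, adjusted p = 3.20e-20). Here the gene end fell about as far (-3.31 ± 0.10, adjusted p = 5.71e-22). Members at Tm4sf1, a tetraspanin-like gene (-3.47 ± 0.12), Itgb3, integrin beta 3 (-3.12 ± 0.14), and Aldh1a1 (-3.30 ± 0.13 at the stronger of 2) were also sharply lower.

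Other gene lists held from 0 to 6 members each, to be read against the 4.89% over all genes. Of the listed genes for myeloid cells, T cells, B cells, NK cells and the TNF and NF-kB pathway, none had a member, over 36, 32, 9, 14 and 77 distal regions with 5 CPM or more in WT LT-HSC. The megakaryocyte and erythroid list had 2 of 34 (5.88%), at Zfpm1 (FOG1, a GATA1 cofactor) and Gfi1b (a repressor needed by platelets and red cells). The MPP and lymphoid list had 1 of 60 (1.67%), at Tcf3. The adhesion list had 5 of 100 (5.0%), the TGF-beta and SMAD list 6 of 121 (4.96%), the cell cycle list 3 of 62 (4.84%), the interferon list 2 of 32 (6.25%) and the macrophage and endothelial list 1 of 24 (4.17%), at Kdr. The list of signalling adaptors and GTPase regulators had 6 of 219 (2.74%) and the AP-1 and immediate early list 2 of 103 (1.94%). All of these members were lower in KO MPP.

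Most genes with a member had only 1. The members were assigned to 1167 genes, of which 977 had 1, 147 had 2 and 43 had 3 or more. Thsd4, an ADAMTS-like matrix gene, had 6 in its body over 452.0 kb, with KO log2 fold changes from -5.08 to -1.99. Among the genes with fewer were Rgs6, a regulator of G-protein signalling (5, from -3.45 to -1.79), Cntnap2, a neurexin-family gene (5, from -5.63 to -2.101), and Foxp1, a forkhead factor (5, from -3.27 to -2.34). Among the genes with 4 were Opcml, a neuronal adhesion gene (from -4.51 to -1.66), Dysf, which encodes the muscle membrane protein dysferlin (from -3.79 to -2.17), and Nav3, a neuron navigator gene (from -3.67 to -2.39). One member of Thsd4 (chr9:60172642-60173121) held 10.6, 8.05 and 7.54 CPM in KO LT-HSC, against 0.265, 0.365 and 0.133 in KO MPP, close to empty in every KO MPP library.

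Members lay at longer genes than the other sets. The median length of the assigned gene was 96.3 kb, against 51.2 kb for regions open mainly in MPP, 55.6 kb for all distal regions with 5 CPM or more in WT LT-HSC and 67.3 kb for all autosomal distal regions. Genes over 500 kb held 10.2% of members, 3.47% of the distal regions with 5 CPM and 1.98% of the regions open mainly in MPP. Of the members, 65.6% lay in a gene body against 60.4% of distal regions with 5 CPM and 56.4% of regions open mainly in MPP. Per chromosome they made up from 3.66% (chromosome 17) to 6.24% (chromosome 9) of the distal regions with 5 CPM. They were scattered, with 7.01% within 10 kb and 20.5% within 50 kb of another member. These figures describe a set chosen on its level and are not tests.

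Other regions near the members were more often lower than higher in KO MPP, most of all within 2 kb. Of 727 other autosomal regions within 2 kb of a member, 59.8% were lower and 16.9% higher in KO MPP than in KO LT-HSC, with a median log2 fold change of -0.75. At 2 to 5 kb 40% were lower and 29.7% higher (median -0.07), at 5 to 10 kb 41.7% and 27.6% (median -0.16) and at 10 to 25 kb 40.2% and 29.0% (median -0.14). At 25 to 50 kb the shares were 37.2% and 31.2%, at 50 to 100 kb 35.0% and 32.4%, and beyond 250 kb 33.3% and 34.3%. Gene-end regions of the genes with a member were lower in 47.1% and higher in 23.4% (1761 regions, median -0.19), against 33.4% and 31.7% of all autosomal gene-end regions (median -0.01). For genes with at least 2 members 60.1% were lower (288 regions, median -0.43). At least 2-fold lower were 371 of the 1761 gene-end regions, against 1426 of the 1426 members. The rule asked for a 4-fold difference in WT of the members only, which favours this contrast.

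**Figure D4:**
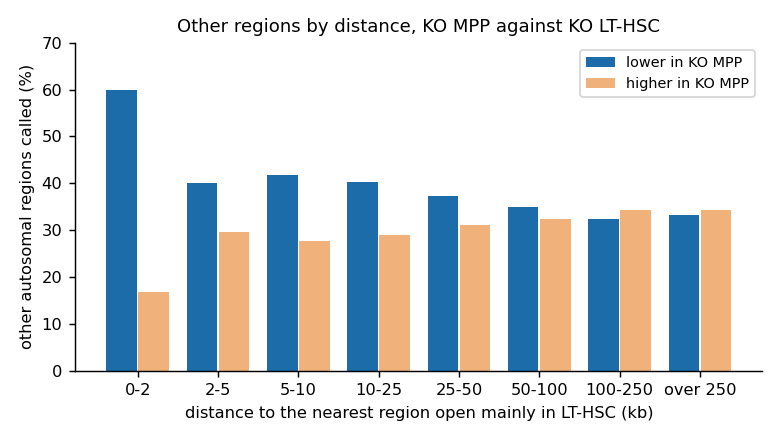
Share (%) of other autosomal regions called lower (blue) or higher (orange) in KO MPP against KO LT-HSC, by distance to the nearest member in kb. The share lower is 59.8% within 2 kb, 40% at 2 to 5 kb and 33.3% beyond 250 kb.

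KO against WT in LT-HSC asked whether loss of Phf6 changed these regions in stem cells. Most members did not pass the test, and 73 were higher (5.12%) and 32 lower (2.24%) in KO LT-HSC, with a median log2 fold change of 0.05. The background over all regions tested was 3.27% higher and 1.47% lower, and over distal regions with 5 CPM 6.56% and 1.54% (median 0.04). The 3 libraries of each genotype did not overlap in 199 of the 1426 members with KO higher and in 212 with KO lower. All regions gave 9.38% and 14.6%, and the distal regions with 5 CPM gave 4089 and 4399 of 29155. Overlap was read on CPM, without the scaling factors of the test. The choice of members used the same WT LT-HSC libraries, which favours lower values in KO. The split of calls depended on scaling: with total counts it was 39 higher and 46 lower, and with a loess offset 38 and 35, and with only regions of 1 CPM or more in 3 libraries tested 51 and 41. With total counts the median turned to -0.01. Leaving out 1 library gave fewer calls, among them 45 higher and 18 lower without WT LT-HSC 1, 20 lower without WT LT-HSC 2, 40 higher without KO LT-HSC 1, 32 and 12 without KO LT-HSC 2, and 36 higher without KO LT-HSC 3. With the share of counts at gene ends as a covariate 16 and 7 were called.

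Among the members that rose in KO LT-HSC was one in the body of Arsk, an arylsulfatase gene (chr13:76074311-76074992). It held 10.3, 8.52 and 8.87 CPM in the WT LT-HSC libraries, against 14.1, 16.3 and 13.7 in the KO ones, without overlap (log2 fold change 0.73 ± 0.11, adjusted p = 0.00015). It also rose in KO MPP, from 1.53, 1.40 and 1.84 to 2.39, 3.16 and 3.38 CPM (0.98 ± 0.15, adjusted p = 0.000229). Members at Dab2, an endocytic adaptor (0.66 ± 0.12), Peg3, an imprinted zinc finger gene (0.66 ± 0.11), Dars, the aspartyl-tRNA synthetase (0.63 ± 0.10), and Alyref, an mRNA export factor (0.61 ± 0.10), rose too. Their adjusted p values were 0.000988, 0.00063, 0.000569 and 0.000466, and the highest over 16 alternatives was 0.0288, at Dab2. Rises at Cd69 (0.65 ± 0.11) and at a second region of Peg3 (0.60 ± 0.13) were lost with the gene-end covariate (adjusted p = 0.0904 and 0.0999). That at Twsg1 (0.59 ± 0.14) was lost under 5 of 16 alternatives (adjusted p up to 0.179). None of the named rises in LT-HSC reached 2-fold. Of 30 named calls in LT-HSC, in either direction, 22 were lost under some alternative, and 20 with the gene-end covariate.

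The strongest fall was at Sorcs2, a sortilin-family receptor gene (chr5:36113695-36114140). This member held 9.20, 9.35 and 8.39 CPM in WT LT-HSC, against 2.59, 1.68 and 2.65 in KO LT-HSC, a log2 fold change of -1.90 ± 0.15 (adjusted p = 1.79e-09). It was the only member at least 2-fold lower in KO LT-HSC. In MPP it held 1.28, 1.17 and 0.936 CPM in WT and 0.682, 0.535 and 0.612 in KO (-0.90 ± 0.23, adjusted p = 0.0135), a call lost without WT MPP 1, KO MPP 2 or KO MPP 3 (adjusted p up to 0.0885). A member at Afap1, an actin-filament protein gene near Sorcs2 on the same chromosome (chr5:35921556-35922051), fell from 10.3, 11.9 and 11.9 to 6.67, 5.25 and 7.06 CPM (-0.79 ± 0.12, adjusted p = 0.000306). Whether the falls at Sorcs2 and Afap1 are separate was not tested. A member at Csmd1, a complement-domain gene, fell by 0.74 ± 0.13 (adjusted p = 0.00075). The falls at Afap1 and Csmd1 in LT-HSC held under all 16 alternatives. Other falls were named at Plppr1 (-0.93), Zfhx3 (-0.84), Zscan25 (-0.82), Unc13c (-0.68) and Kcnab1 (-0.67), each of which lost its call under 1 of 16 alternatives. For Kcnab1 that was the fit without KO LT-HSC 2 (adjusted p = 0.0757), and for the other 4 the gene-end covariate.

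KO against WT in MPP showed more members higher than in LT-HSC. Of the 1426, 257 were higher (18%) and 33 lower (2.31%) in KO MPP, where all regions tested gave 5.12% and 3.59%. The median log2 fold change was 0.18, with 957 members above 0, against -0.01 for all regions and 0.01 for distal regions with 5 CPM, of which 9.63% were higher and 6.30% lower. Libraries of the 2 genotypes did not overlap in 394 of the 1426 with KO higher and in 123 with KO lower, where all regions gave 12% and 16%. Regions open mainly in MPP went the other way, with 2.22% higher and 13.9% lower (median -0.10). The rule picked members for low values in these WT MPP libraries and the mirrored regions for high ones, and so favours both of these directions.

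Values that the rule did not use gave the same sign of median. When members were chosen on 2 WT replicate numbers and KO was fitted against the WT MPP library of the third number, the median log2 fold change was 0.21, 0.16 and 0.19, against 0.00, -0.004 and 0.005 over all regions. The share of members above 0 was 67.5%, 62.6% and 66.8%. With 1 WT library 29, 81 and 101 members were called higher and 4, 15 and 13 lower, where all regions gave 0.169%, 1.80% and 3.3% higher. In LT-HSC the same procedure gave medians of 0.05, 0.04 and 0.11, against 0.014, 0.011 and 0.009 over all regions. The lone WT library is assumed in these fits to vary like the other groups.

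**Figure D5:**
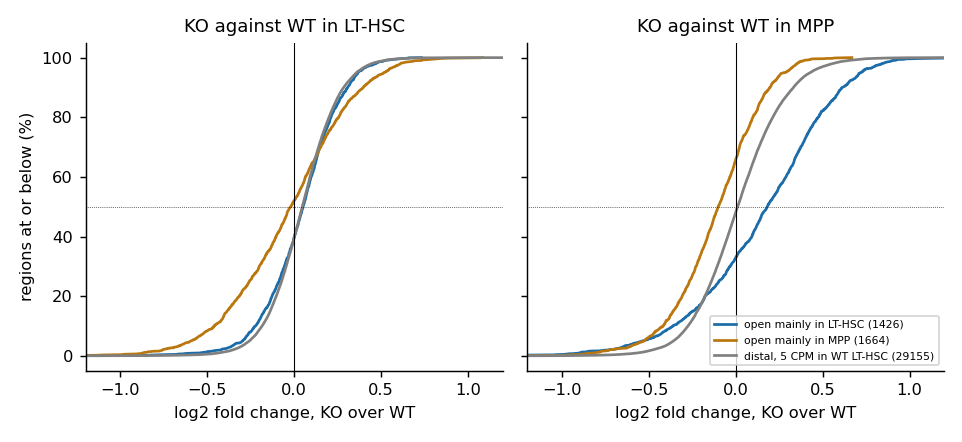
Cumulative share of regions (%) at or below each log2 fold change of KO over WT, in LT-HSC (left) and MPP (right), for members (blue), regions open mainly in MPP (orange) and distal regions with 5 CPM in WT LT-HSC (grey). In MPP the blue curve crosses 50% at 0.18 and the grey at 0.01, and in LT-HSC the curves cross at 0.05 and 0.04.

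The count in MPP moved with single libraries. It was 165 higher without WT MPP 1, 126 higher and 15 lower without KO MPP 2, 167 higher and 11 lower without KO MPP 3, and 15 lower without WT MPP 2. The median stayed between 0.16 and 0.23 in all of these. Adding the gene-end share to the model, 140 were higher and 21 lower and the median was 0.18. Gene-end regions of marker genes did not all move in 1 direction. That of Flt3 held 59.3, 60.1 and 59.6 CPM in WT MPP, against 50.3, 47.3 and 44.6 in KO MPP, without overlap (log2 fold change -0.30 ± 0.06, adjusted p = 0.00248). The gene end of Cd48 rose without overlap but did not pass (0.34 ± 0.11, adjusted p = 0.0538), and that of Slamf1 passed upward (0.45 ± 0.14, adjusted p = 0.038). Gene ends of Cd34 (-0.18 ± 0.08), Procr, Hlf and Mecom did not pass. The summed level over 32 myeloid gene-end regions was 370.9 to 388.6 CPM in WT MPP and 383.0 to 405.4 in KO MPP (6 higher, 1 lower), and over 23 of the megakaryocyte and erythroid list 426.9 to 448.6 and 420.1 to 436.4 (6 higher, 0 lower). Sums for T cells (15 regions, 89.8 to 98.3 and 82.0 to 90.5), B cells (15 regions, 43.4 to 44.7 and 38.9 to 42.4), NK cells (13 regions, 55.4 to 61.8 and 59.2 to 63.0) and macrophages and endothelium (18 regions, 74.5 to 79.3 and 80.6 to 84.5) had at most 1 call each, and none was near 0. Their part in the result was not tested.

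Over the 257 members that rose in KO MPP, the median log2 fold change was 0.61, and the level moved from a median of 18.3% of the WT LT-HSC level in WT MPP to 26.5% in KO MPP. The highest reached 55.5%. The rule had set these members low in WT MPP against WT LT-HSC, so that such shares follow in part from the choice. Of the members called, 47 were higher and 11 lower in both populations, and none was called in opposite directions. Among members whose genotypes did not overlap in either population, 146 moved the same way and 17 in opposite directions. These counts were not taken over all regions. Members at genes over 500 kb had a median of 0.09, with 8.97% higher and 4.83% lower, and those at genes under 50 kb a median of 0.22, with 18.7% and 1.62%.

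The member with the largest rise lay in the body of Hsph1, the HSP110 chaperone gene (chr5:149623807-149624461). It held 3.20, 2.51 and 3.09 CPM in WT MPP, against 7.65, 6.74 and 5.85 in KO MPP, without overlap (log2 fold change 1.23 ± 0.12, adjusted p = 3.49e-07). In LT-HSC it held 12.6, 10.96 and 12.9 CPM in WT and 15.5, 15.0 and 16.2 in KO (0.42 ± 0.10, adjusted p = 0.0119), a call lost without WT LT-HSC 2 or KO LT-HSC 3 and with the gene-end covariate (adjusted p up to 0.113). A member at Zeb2, a zinc finger repressor that acts in myeloid and lymphoid fate (chr2:45113855-45114257), rose from 1.13, 1.07 and 1.70 to 2.46, 2.77 and 3.38 CPM in MPP (1.23 ± 0.17, adjusted p = 3.69e-05). One 69.0 kb from Vegfc, a lymphatic growth factor gene (chr8:54255438-54255871), rose from 1.08, 0.989 and 1.18 to 2.16, 2.70 and 2.45 CPM (1.23 ± 0.16, adjusted p = 2.62e-05). Both were clear of overlap, and both stayed below KO LT-HSC, with means there of 8.99 and 13.0 CPM. Both were also higher in KO LT-HSC than in WT LT-HSC (means 6.84 and 9.70 CPM), without overlap. The log2 fold changes there were 0.45 ± 0.12 (adjusted p = 0.0233) at Zeb2 and 0.47 ± 0.10 (adjusted p = 0.00552) at Vegfc. These calls in LT-HSC were lost under 5 of 16 alternatives at Zeb2 and with the gene-end covariate at Vegfc. Members at Dzip1 (1.14 ± 0.15), Alyref (1.02 ± 0.14) and Arsk also rose, and these 6 calls in MPP held under all 16 alternatives. Dzip1 was also higher in KO LT-HSC (0.55 ± 0.11, adjusted p = 0.00271), a call lost with the gene-end covariate. The rise in MPP at Stard4 (1.07 ± 0.34, adjusted p = 0.0449), from a WT mean of 0.198 CPM, was lost under 11 of 16 alternatives. That at Syn3 (0.97 ± 0.22, adjusted p = 0.00451) was lost without KO MPP 2. Of 48 named calls in MPP, in either direction, 28 were lost under some alternative.

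Of the 12 members at stem cell identity genes 6 rose in KO MPP and none fell, with a median log2 fold change of 0.43. Of all members 18% rose, of all regions 5.12%, and the rule favours this direction. The 6 were 2 at Mecom, and 1 each at Mllt3, Slamf1, Prdm16 and Vwf. The Mllt3 member described above rose by 0.66 ± 0.13 (adjusted p = 0.00228), the one at Vwf from 1.18, 1.11 and 0.867 to 1.89, 1.73 and 2.102 CPM (0.86 ± 0.20, adjusted p = 0.00587), and one at Mecom (chr3:30416642-30417088) from 1.251, 1.215 and 1.491 to 1.74, 2.26 and 2.74 CPM (0.84 ± 0.18, adjusted p = 0.00302). At each of the 3 the genotypes did not overlap, and these 3 calls held under all 16 alternatives. The call at Slamf1 (0.64 ± 0.17, adjusted p = 0.0179) was lost with limma-voom and without WT MPP 2 or 3 or KO MPP 2 or 3 (adjusted p up to 0.135). That at Prdm16 (0.67 ± 0.19, adjusted p = 0.0205) was lost without WT MPP 1 or 2 or KO MPP 3 and with the gene-end covariate (adjusted p up to 0.139). The other call at Mecom (0.51 ± 0.16, adjusted p = 0.0396) was lost under 11 of 16 alternatives. In LT-HSC 1 of the 12 was higher, at Mllt3 (0.31 ± 0.09, adjusted p = 0.0392), and 9 of 16 alternatives lost that call.

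Of the 9 members at aging genes 4 rose in KO MPP and none fell, to be read against the same 18% of members and 5.12% of regions. They were at Nupr1 (0.42 ± 0.10, adjusted p = 0.00661), Gda (0.81, adjusted p = 0.0117, named after its value was seen), Vwf and Slamf1, while those at Cavin2 (0.09 ± 0.18), Tm4sf1 (0.03 ± 0.17), Itgb3 (0.14 ± 0.19) and both at Aldh1a1 did not pass. The member 6.8 kb from Gfi1b (chr2:28602145-28602616) rose from 1.80, 1.94 and 2.39 to 3.22, 2.87 and 3.41 CPM (0.68 ± 0.14, adjusted p = 0.00325), a call that all 16 alternatives kept. That in Zfpm1 rose by 0.41 ± 0.10 (adjusted p = 0.00962), lost without WT MPP 3, KO MPP 2 or KO MPP 3 and with the gene-end covariate (adjusted p up to 0.224). A member at Pde4d, a cAMP phosphodiesterase gene, rose from 3.33, 3.75 and 4.13 to 5.91, 5.65 and 4.76 CPM (0.57 ± 0.11, adjusted p = 0.00162) and did so under all 16 alternatives. Of the 6 members of the TGF-beta and SMAD list 3 rose and none fell. One at Smad6, an inhibitory SMAD, rose by 0.58 ± 0.16 (adjusted p = 0.0179), lost without WT MPP 1 or 3 or KO MPP 2 or 3 and with the gene-end covariate (adjusted p up to 0.108). The member at Ski, a SMAD corepressor, rose by 0.34 ± 0.09 (adjusted p = 0.0153), lost without KO MPP 1 or 2 and with the gene-end covariate (adjusted p up to 0.136). Those at Smad3 (0.01 ± 0.18), a TGF-beta effector, and Tgfbr3 (-0.40 ± 0.31), a TGF-beta co-receptor, did not pass. Of the 10 most open members 9 were higher in KO MPP, by 0.35 to 0.49, and Soga1 (0.23 ± 0.09, adjusted p = 0.0882) did not pass. Among the 462 members with at least 10 CPM in WT LT-HSC 140 were higher. Smaller changes pass at higher counts, and the rule favours this direction. The calls at Btg2 (lost without WT MPP 1 or 3 or KO MPP 1 or 3), Gypc (without KO MPP 3), Slc2a1 (without KO MPP 2) and Ahctf1 (without WT MPP 1 or KO MPP 2) were also lost with the gene-end covariate.

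Members that fell in KO MPP were fewer and lay at longer genes, with a median gene length of 155.9 kb over 33 members against 83.0 kb over the 257 that rose. In the body of Sdk2, a synaptic adhesion gene (chr11:113972373-113972962), the level fell from 1.55, 1.11 and 1.21 to 0.606, 0.535 and 0.399 CPM (-1.32 ± 0.25, adjusted p = 0.00127). At Col6a3, a collagen gene 69.2 kb away, it fell from 1.451, 1.215 and 1.21 to 0.644, 0.462 and 0.612 CPM (-1.17 ± 0.23, adjusted p = 0.00207), and the Afap1 member fell by 1.03 ± 0.19 (adjusted p = 0.00075). These groups did not overlap, and the 3 calls held under all 16 alternatives. The falls at Sis, Sh3bp4 and Rabgap1l were each lost without 2 of the libraries, WT MPP 2 and KO MPP 2 for Sis and WT MPP 1 and KO MPP 2 for the other 2, and those at Cntnap2 and Csmd1 in 9 and 11 of 16 alternatives.

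Whether the genotype effect differed between MPP and LT-HSC was tested as an interaction. No member passed in edgeR's quasi-likelihood test, and over all regions 15 were higher (0.00805%) and 0 lower. In that test 290 of the 1426 members had an unadjusted p under 0.05, as did 14082 of all 186373 regions. DESeq2 called 4 members, limma-voom 0, and edgeR with total counts 1 and with a loess offset 2. The median interaction of the members was 0.14 and that of all regions -0.004, with 930 of 1426 members above 0. The WT libraries that chose the members enter this test, which favours values above 0. Held-out medians were 0.15, 0.10 and 0.06. The larger count of members higher in KO in MPP than in LT-HSC is therefore not shown by this test, region by region, to be a difference between the populations.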

How the data were processed

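ATAC-seq of 12 libraries was deposited as 1 table of raw counts per accessible region. Per the submitters' processing notes, reads were handled with Bowtie2 and cutadapt, regions with MACS2 2.1.1 and counts with featureCounts and DESeq2 1.22.1, on build GRCm38, and per the labels reads were paired, 75 nt, from a NextSeq 500. The notes do not say how peaks were merged or Tn5 offsets treated. From these counts CPM was computed over each column's total, and genes came from the RefSeq table (21900 protein-coding genes). The members, lists and tests were chosen with earlier results of these data known. Regions passing edgeR's filterByExpr (186373 of 188262) were fitted in 1 model of 4 groups with TMM factors and tested with edgeR 4.0.16's quasi-likelihood F test (R 4.3.3), 2-sided, Benjamini-Hochberg adjusted over all regions tested, with 0.05 as threshold. SE is that of the log2 fold change. The procedure was tested on simulated data. DESeq2 1.42.0, limma-voom (limma 3.58.1), other scalings and filters, a replicate block, each library left out, and, added after seeing the data, a loess offset, the share of counts at gene ends as a covariate and held-out WT libraries were the alternatives. Named members were the 10 most open in KO LT-HSC, those of the 8 genes with most members, up to 8 called without overlap per direction and genotype comparison, all at stem cell identity genes, up to 4 per other list, and 3 on each side of both thresholds. One gene that this rule names, and its place in the stem cell identity list, is not reported here.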

Additional observations from a re-analysis of the deposited data

How the results depend on the processing

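The 1426 falls in KO MPP against KO LT-HSC were called under every alternative fit, and a fold of at least 6 or 10 CPM reduced the members to 643 and 462, all called, while a fold of at least 3 gave 2474. Leaving out 1 replicate number from the choice gave from 1393 to 1515 members. In LT-HSC, KO against WT gave from 32 to 62 members higher and from 12 to 31 lower over the fits that left out 1 library. It gave 39 higher with total counts, 38 with loess, 16 higher and 7 lower with the gene-end covariate, 27 and 20 at a fold of at least 6, 32 and 12 at 10 CPM, and 1 and 3, 11 and 11, and 75 and 20 against held-out WT numbers 1, 2 and 3. In MPP, leaving out 1 library gave from 126 to 213 higher and from 11 to 32 lower. It gave 140 and 21 with the gene-end covariate, 93 and 19 at a fold of at least 6, 140 and 13 at 10 CPM, and 29 and 4, 81 and 15, and 101 and 13 against held-out numbers. Fewer members or libraries were tested in the last 3 kinds of fit, and the cause of the other changes was not tested. The interaction, with 0 members called, gave 1 with total counts, 4 with DESeq2 and 2 with loess.

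A replicate block gave 95 higher and 43 lower in LT-HSC, 278 and 35 in MPP and 12 for the interaction. The same numbers were not treated as pairs in the main fit, as the labels do not give pairs. Deviations of same-numbered LT-HSC and MPP libraries correlated by 0.0536 to 0.0637 in KO and by 0.0731 to 0.114 in WT. Those of differently numbered libraries correlated by -0.0418 to -0.0146 in KO and by -0.0781 to -0.0063 in WT. Deviations were taken from the group mean of 3 libraries, which ties these values to each other. Whether the same numbers shared an animal or a preparation was not tested. The alternative on the central bases of each region was not run, as no genome was used here.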
